A study of Arabidopsis thaliana with 3 samples.

Results

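The ATHILA2 regions were stretches of differential DNA methylation whose only annotated repeat was the Gypsy retrotransposon ATHILA2, and the level of 24-nt small RNAs over each was compared between seedlings of 3 genotypes of Arabidopsis thaliana. They were found by pooling the 6 classes of methylation regions (CG, CHG or CHH context, each hyper or hypo), collapsing entries with the same coordinates, and keeping those that named ATHILA2 and no other repeat, whatever gene they also named. This left 313 regions of 4481 distinct regions, or 6.99%, and a further 34 regions that named ATHILA2 beside another repeat were set aside. The libraries came from ddb2-3 plants (line DsLoxHs195_05H), nrpd1a plants (line Salk_583051) and WT plants (Col). All were whole seedlings, 10 days old, grown in vitro in liquid medium with 16 h of light and 8 h of dark, and their total RNA gave 1 library per genotype. The labels could be checked against the data for nrpd1a through its small RNAs, whereas the mRNAs of DDB2 and NRPD1 were not measured. In whole seedlings, more small RNA per cell and more cells of a kind that makes it cannot be told apart. There were no replicates, so no difference between genotypes could be tested, and all intervals below cover counting error only. Which genotypes' methylation was compared to set the hyper and hypo classes is not given in the sources used here.

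Athila elements are long terminal repeat (LTR) retrotransposons of the Gypsy superfamily, which copy themselves through an RNA intermediate and are packed around the centromeres of Arabidopsis chromosomes. Most copies are old and broken, carry dense DNA methylation and are silent. RNA polymerase IV, whose largest subunit NRPD1 is lost in nrpd1a, transcribes such repeats, and its transcripts are copied and diced into 24-nt small interfering RNAs (siRNAs) that guide methylation back to the repeat. DDB2 is a subunit of a complex that recognises ultraviolet damage in DNA during global genome repair.

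The regions are short windows into these elements, and 4 kinds of them are shown here because the results below turn on them. All sequences are from the TAIR10.1 assembly (RefSeq). The first region had the highest WT level, and its capitals mark CHG sites on the strand shown (H is A, C or T).

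chr5:12348401-12348700, plus strand: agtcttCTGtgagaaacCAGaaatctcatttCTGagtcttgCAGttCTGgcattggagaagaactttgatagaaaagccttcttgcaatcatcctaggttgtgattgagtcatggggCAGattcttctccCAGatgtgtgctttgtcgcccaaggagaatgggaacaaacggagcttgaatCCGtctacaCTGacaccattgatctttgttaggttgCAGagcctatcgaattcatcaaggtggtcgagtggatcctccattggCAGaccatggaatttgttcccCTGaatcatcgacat

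The next 2 were the members of the CG classes, CG-hyper first and CG-hypo second, with CG sites in capitals. The first held 1 CG site and the second 3 CG sites.

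chr5:12342101-12342200, plus strand: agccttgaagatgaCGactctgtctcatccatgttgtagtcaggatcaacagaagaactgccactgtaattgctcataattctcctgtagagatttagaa

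chr4:3740701-3740800, plus strand: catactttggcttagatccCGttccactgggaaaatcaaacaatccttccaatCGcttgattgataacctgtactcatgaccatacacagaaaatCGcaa

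The next pair shows the range of sequence uniqueness, with every 24-mer that occurs once in the genome in capitals. The first region, which had the most nrpd1a reads, contains no such 24-mer, whereas 86 of the 100 bases of the second, which had the highest ddb2-3 to WT ratio of all 313, lie in one.

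chr2:5576001-5576100, plus strand: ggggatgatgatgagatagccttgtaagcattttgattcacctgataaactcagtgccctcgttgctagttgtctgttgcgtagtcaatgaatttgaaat

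chr3:14821501-14821600, plus strand: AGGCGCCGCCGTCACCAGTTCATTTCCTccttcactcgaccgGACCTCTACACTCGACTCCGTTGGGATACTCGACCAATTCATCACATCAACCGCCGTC

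The last pair lies in LTRs of 2 different copies on chromosome 3 and shows how alike members can be, with the 24-mers they share in capitals. These 24-mers cover 83 of 100 bases in each region.

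chr3:14415701-14415800, plus strand: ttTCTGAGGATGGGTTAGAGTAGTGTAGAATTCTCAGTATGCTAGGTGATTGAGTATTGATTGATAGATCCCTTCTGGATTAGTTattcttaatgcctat

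chr3:15721701-15721800, minus strand: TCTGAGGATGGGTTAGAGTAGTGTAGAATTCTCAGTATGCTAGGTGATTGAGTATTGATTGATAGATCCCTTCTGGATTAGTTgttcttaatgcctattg

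Levels are in RPM, small RNA reads scaled to library size and summed over a region. The deposited values stepped by 0.120 RPM per read in ddb2-3, 0.727 RPM in nrpd1a and 0.169 RPM in WT, so the nrpd1a library was the shallowest, with a normalising total of 1376238 reads. The ATHILA2 regions held 80453 reads in ddb2-3, 91 reads in nrpd1a and 38048 reads in WT. They were 52 to 500 bp wide, and 283 of them were exactly 100 bp. The 313 regions fell into 133 clusters of neighbours less than 5 kb apart, of which 62 held a single region and the largest held 14 regions. Of the 313 regions, 171 overlapped an annotated pseudogene, 3 overlapped a protein-coding gene and 139 overlapped neither.

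The 24-nt small RNA level over ATHILA2 regions was higher in ddb2-3 than in WT across nearly the whole set. Regions averaged 30.8 RPM in ddb2-3 and 20.6 RPM in WT, with medians of 17.3 RPM in ddb2-3 and 11.5 RPM in WT. The summed level was 1.50-fold that of WT, a log2 ratio of 0.58 (95% exact binomial interval 0.57 to 0.60), against 0.13 over all distinct regions and 0.08 over the regions without ATHILA2 as sole repeat. Over all regions the median ddb2-3 to WT ratio was itself 1.15, a log2 shift of 0.20, and relative to it the ATHILA2 sum was 0.38 on the log2 scale. Of the 313 regions, 295 (94.2%) lay above WT, where 63.4% of all distinct regions did, and 270 lay above that median ratio. The median difference on the log2(RPM + 1) scale was 0.58 over ATHILA2 regions and 0.17 over all distinct regions.

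The shift was moderate in size and widely shared rather than carried by a few regions. The ddb2-3 to WT ratio of RPM, taken without a pseudocount, had a median of 1.54, with quartiles of 1.29 and 1.87 and extremes of 0.236 and 7.26. At the fold rule of 2-fold or more on the log2(RPM + 1) scale, 27 regions (8.63%) were higher in ddb2-3, where 5.22% of all distinct regions passed the same rule. In the other direction 0 ATHILA2 regions passed, where 1.67% of all distinct regions did. An exact binomial test of the recovered reads with Benjamini-Hochberg adjustment, which compares these 2 libraries and not the genotypes, called 193 regions (61.7%) higher against a background of 19.3%, and 0 lower against 7.03%. The 95% counting interval of the ratio lay wholly above 1 in 216 regions, against 25.8% of all distinct regions, and wholly below 1 in 0 regions, against 9.89%.

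**Figure D1:**
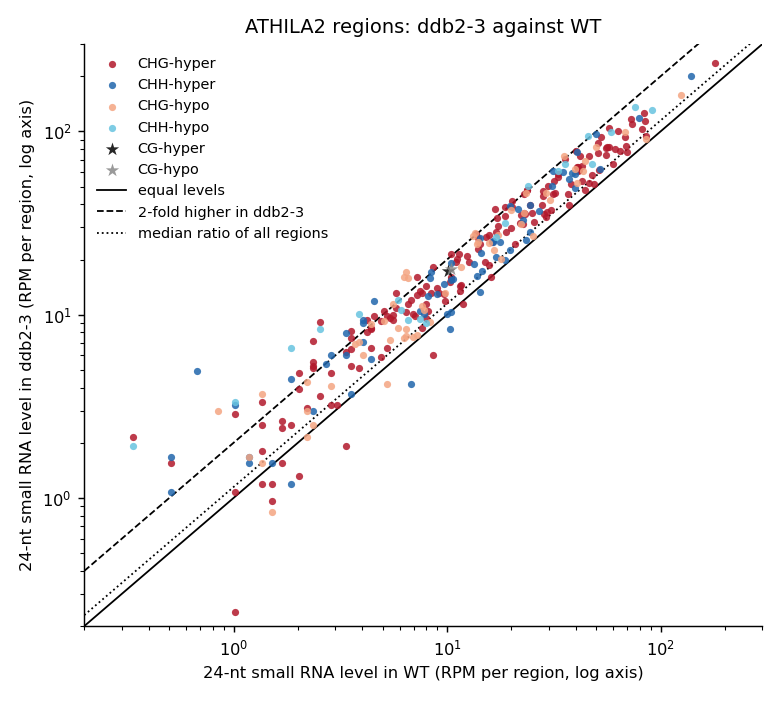
Level of 24-nt small RNAs in each of the 313 ATHILA2 regions in ddb2-3 (vertical) against WT (horizontal), in RPM on log axes, with 1 point per region coloured by class (the first class listed, for the 3 regions in 2 classes). The cloud lies mostly above the line of equal levels, with 295 points above that line, and the spread widens below about 5 RPM.

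The 5 regions with the highest WT level all had a higher level in ddb2-3, at ratios below 2. The region chr5:12348401-12348700, shown above with its 12 CHG sites in capitals and lying in the pseudogenes AT5G32690 and AT5G32750, had 236 RPM in ddb2-3, 0.727 RPM in nrpd1a and 179 RPM in WT, a ddb2-3 to WT ratio of 1.32 (1.22 to 1.42). The LTR region chr1:15192601-15192900 had 201 RPM in ddb2-3, 0 RPM in nrpd1a and 139 RPM in WT, a ratio of 1.45 (1.33 to 1.58). The region chr4:4183601-4183700 in the pseudogene AT4G07360 had 158 RPM in ddb2-3, 0.727 RPM in nrpd1a and 125 RPM in WT, a ratio of 1.26 (1.15 to 1.39). These 3 belong to 3 different classes, CHG-hyper, CHH-hyper and CHG-hypo in that order. The region chr2:5567701-5567800 of the CHH-hypo class had 130 RPM in ddb2-3, 0 RPM in nrpd1a and 91.0 RPM in WT, a ratio of 1.43 (1.29 to 1.59). The fifth, chr4:3354001-3354100 in an LTR, had 94.8 RPM in ddb2-3, 1.45 RPM in nrpd1a and 85.6 RPM in WT, and its interval of 0.989 to 1.24 includes 1. On chromosome 3 the highest WT level was that of chr3:12223401-12223500, with 103 RPM in ddb2-3, 0.727 RPM in nrpd1a and 81.5 RPM in WT.

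All 77 regions of the highest of 4 bins of WT level (29.4 RPM or more in WT) lay above WT. The summed log2 ratio was 0.89 (0.79 to 0.99) in the lowest bin, then 0.62, 0.64 and 0.54 (0.52 to 0.56) in the highest. Spearman's rho between WT level per kb and log2 ratio was -0.20 over the 313 regions. The WT level enters both the bins and the ratio. The following regions were taken by ratio from the 80 whose higher level of ddb2-3 and WT was at least 45.3 RPM. Of these 80, 40 reached that level in ddb2-3 alone and so are above WT by selection, and their ratios are given as a description. The 5 highest ratios lay between 2.01 and 2.10. The region chr1:14497901-14498000 had 50.3 RPM in ddb2-3, 0 RPM in nrpd1a and 24.0 RPM in WT, a ratio of 2.10 (1.73 to 2.55). The region chr3:14415701-14415800, the plus-strand member of the alike pair above, had 73.4 RPM in ddb2-3, 0.727 RPM in nrpd1a and 35.2 RPM in WT, a ratio of 2.09 (1.78 to 2.46). The region chr2:5577701-5577800 had 94.4 RPM in ddb2-3, 1.45 RPM in nrpd1a and 45.7 RPM in WT, a ratio of 2.07 (1.80 to 2.38). All 3 lie in LTR sequence and all 3 are of a hypo class. The other 2 are CHG-hyper. The region chr1:15451501-15451600 had 47.9 RPM in ddb2-3, 0.727 RPM in nrpd1a and 23.7 RPM in WT, a ratio of 2.02, and chr3:15153101-15153200 had 47.7 RPM in ddb2-3 and the same nrpd1a and WT levels, a ratio of 2.01. The 5 lowest ratios of these 80 ran from 1.06 for chr1:14227901-14228000, with 51.6 RPM in ddb2-3, 0 RPM in nrpd1a and 48.7 RPM in WT, to 1.11 for chr4:3354001-3354100. All 5 lie in LTR sequence, and the interval of each includes 1.

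The largest ratios belonged to thinly covered regions. Of the 27 regions that passed the fold rule, 16 had less than 5 RPM in WT. The highest ratio, at chr3:14821501-14821600, rests on 4.91 RPM in ddb2-3, 0 RPM in nrpd1a and 0.676 RPM in WT, so its interval runs from 2.63 to 27.9. In this region, whose sequence is shown above, 49.4% of the 24-mers occur once in the genome. It could not be placed on the full-length copy described below. The region chr4:4406532-4406600, whose 24-mers all occur once in the genome, had 9.11 RPM in ddb2-3, 0 RPM in nrpd1a and 2.54 RPM in WT, a ratio of 3.59 (2.05 to 6.73). Better covered were chr5:12070801-12070900, an LTR region with 37.7 RPM in ddb2-3, 0 RPM in nrpd1a and 16.7 RPM in WT, and chr1:14926701-14926800, with 38.5 RPM in ddb2-3, 0 RPM in nrpd1a and 18.6 RPM in WT, at ratios of 2.25 and 2.07. These last 3 were chosen after their values were seen.

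Of the 18 regions below WT, none had a counting interval that excluded 1. The lowest ratio, at chr2:3870701-3870800, came from 0.240 RPM in ddb2-3, 0 RPM in nrpd1a and 1.01 RPM in WT. The best covered of the 18, chr5:12126801-12126900, had 16.1 RPM in both ddb2-3 and WT and 0.727 RPM in nrpd1a. Only 3 ATHILA2 regions overlapped a protein-coding gene, and they are named for that reason, after their values were seen. In AT1G41920 (chr1:15683101-15683200) the level was 19.3 RPM in ddb2-3, 0 RPM in nrpd1a and 12.7 RPM in WT. In AT3G32896 (chr3:13425801-13425900) it was 3.95 RPM in ddb2-3, 0 RPM in nrpd1a and 2.03 RPM in WT. In AT3G43153 (chr3:15150701-15150800) it was 3.24 RPM in ddb2-3, 0 RPM in nrpd1a and 1.01 RPM in WT. All 3 were higher in ddb2-3 than in WT, at ratios of 1.52, 1.95 and 3.19, and all 3 had no nrpd1a read. The ratio at AT3G43153 rests on 6 WT reads, with an interval of 1.29 to 9.44. At AT3G32896 and AT3G43153 the WT level was itself under that of 3 nrpd1a reads (2.18 RPM), so a lack of nrpd1a reads there says little.

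The ddb2-3 ratio was alike in 3 of the 4 larger classes and higher in the fourth, CHH-hypo. CHG-hyper was the most common class with 170 regions, followed by CHH-hyper with 67 regions, CHG-hypo with 56 and CHH-hypo with 21, and each CG class held 1 region. These counts overlap, because 3 regions belong to 2 classes. The summed log2 ratio of ddb2-3 to WT was 0.56 for CHG-hyper, 0.56 for CHG-hypo and 0.58 for CHH-hyper regions, so these 3 classes lay within each other's counting intervals. CHH-hypo stood higher at 0.75 (0.69 to 0.82), with a mean of 41.5 RPM in ddb2-3 and 24.6 RPM in WT. All 21 of its regions lay above WT, where 50.7% of all CHH-hypo regions did, and 7 of them passed the fold rule, where 3.5% of all CHH-hypo regions did. Over all distinct regions the class sums differed more. They were 0.37 for CHG-hyper, 0.20 for CHG-hypo, 0.08 for CHH-hyper and -0.03 for CHH-hypo.

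The 2 CG regions, printed above, behaved alike although their classes have opposite directions. The CG-hyper region chr5:12342101-12342200, in the pseudogenes AT5G32690 and AT5G32726, had 17.3 RPM in ddb2-3, 0 RPM in nrpd1a and 10.1 RPM in WT. The CG-hypo region chr4:3740701-3740800, in the pseudogene AT4G06624, had 17.7 RPM in ddb2-3, 0 RPM in nrpd1a and 10.5 RPM in WT. Their ddb2-3 to WT ratios were 1.70 (1.25 to 2.34) and 1.69 (1.25 to 2.31), whereas the sums of all CG regions were 0.77 for hyper and -0.70 for hypo on the log2 scale.

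**Figure D2:**
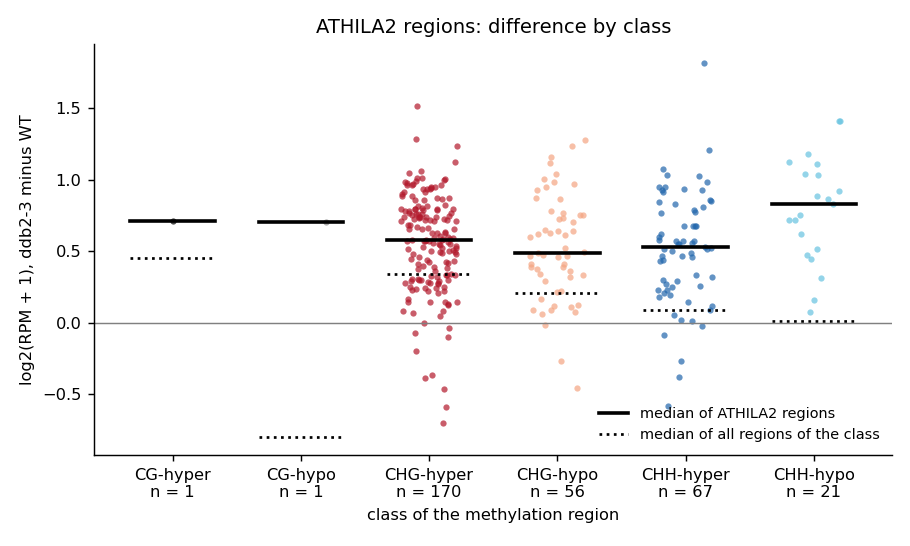
Difference between ddb2-3 and WT on the log2(RPM + 1) scale for each ATHILA2 region by class, with solid bars at the ATHILA2 median and dotted bars at the median of all distinct regions of that class; the 3 regions in 2 classes are drawn in both. The ATHILA2 medians run from 0.49 in CHG-hypo to 0.83 in CHH-hypo, and in every class the solid bar is above the dotted one.

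Gain and loss of methylation also lay side by side in the same stretches of chromosome. Pooled over contexts, the summed log2 ratio was 0.57 (0.55 to 0.59) in the 236 hyper regions. It was higher, at 0.64 (0.60 to 0.68), in the 77 hypo regions. Among these, CHG-hypo had 0.56, the same as CHG-hyper, and CHH-hypo had 0.75. Of the 133 clusters of neighbouring regions, 38 held both hyper and hypo regions, and the summed level was above WT in all 38. In 36 of them both the hyper and the hypo regions were above WT, and in 22 the hypo regions had the higher ratio. Counted by cluster rather than by region, 126 of the 133 were above WT in sum and 7 were below.

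The ATHILA2 regions hugged the centromeres, and their ddb2-3 ratio was much the same along that span. All 313 lay within 3 Mb of the assembly gap that stands for the centromere, at a median distance of 0.746 Mb and at most 2.19 Mb, where 59.7% of all distinct regions lay within 3 Mb. The summed log2 ratio was 0.58 in the 215 regions within 1 Mb, 0.58 in the 87 regions between 1 and 2 Mb, and 0.68 (0.60 to 0.75) in the 11 regions beyond. Spearman's rho between distance and log2 ratio was -0.08 over the 313 regions, which share 2 libraries and in many cases sequence. The 3 farthest regions, all on chromosome 4 in LTR or frame 1 sequence, had 13.4, 1.32 and 13.2 RPM in ddb2-3, 0 RPM each in nrpd1a, and 11.5, 2.03 and 8.45 RPM in WT. In that order, these were above, below and above WT.

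The 5 chromosomes carried 68, 45, 72, 60 and 68 ATHILA2 regions in order. Their summed log2 ratios were 0.58 on chromosome 1, 0.61 on chromosome 2, 0.67 on chromosome 3, 0.52 on chromosome 4 and 0.55 on chromosome 5. Both sides of each centromere were above WT in sum, and the lowest was the left side of chromosome 5 at 0.45 (0.34 to 0.56) with 11 regions. The highest was the right side of chromosome 3 at 0.73 (0.68 to 0.78) with 44 regions. Chromosome 2 was the most lopsided, with 4 regions to the left of its centromere and 41 to the right.

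**Figure D3:**
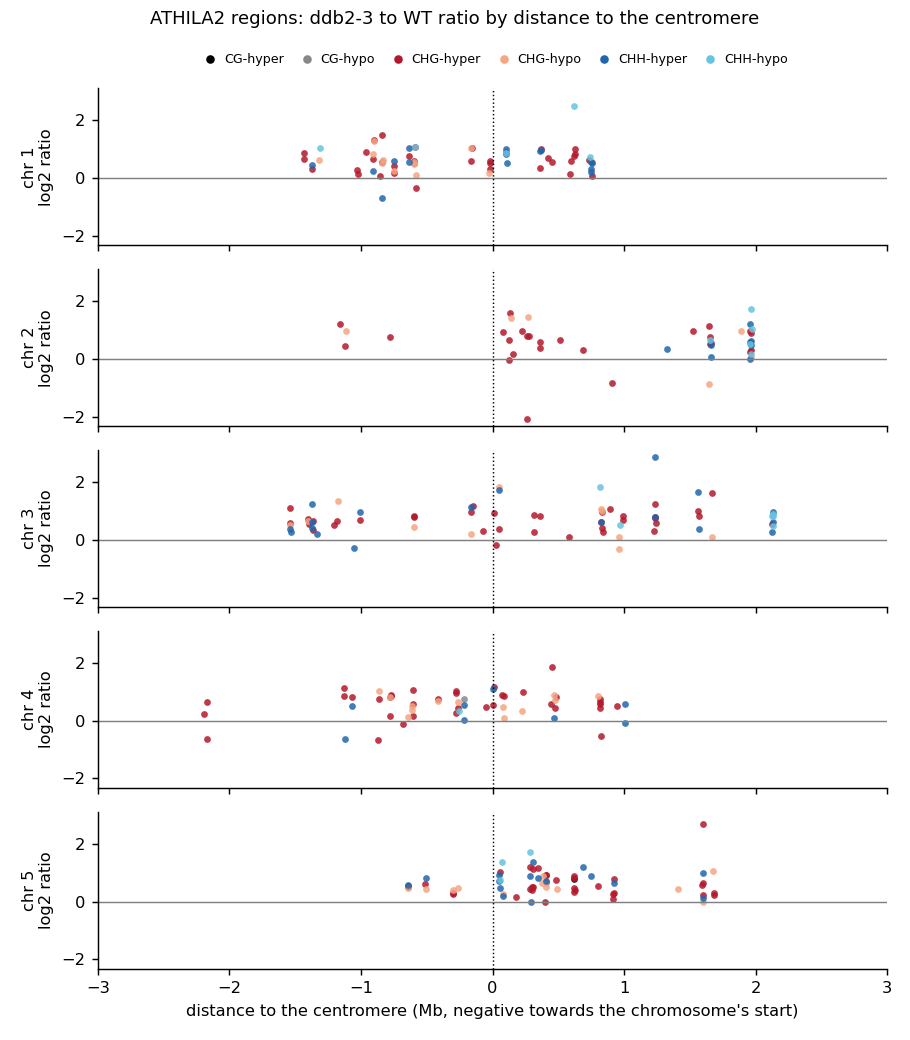
Log2 ratio of ddb2-3 to WT for each ATHILA2 region against its signed distance to the centromere in Mb, with 1 panel per chromosome and points coloured by class (the first class listed). Points above 0 dominate on both sides of every centromere, and no region lies farther out than 2.19 Mb.

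To place the regions within the retrotransposon, they were aligned to 1 full-length copy on chromosome 3 (chr3:15711476-15722694, minus strand). It was chosen because its 2 LTRs were the most alike of the 7 copies found with an LTR pair. Only annotated copies with several ATHILA2 regions were searched, for LTR alignments of 1500 to 2000 bp. The chosen copy is 11219 bp long with LTRs of 1759 and 1755 bp that are 99.3% identical. Between them lie 3 stretches free of stop codons on the element's strand, of 927, 252 and 595 codons, and none of at least 250 codons on the other strand. Of the 313 regions, 273 could be placed, at a median identity of 93.75%, and 40 could not. LTRs held 121 regions, the part from the LTR to the end of frame 1 held 59, from there to the end of frame 3 held 50, and from there to the 3′ LTR held 43.

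The ddb2-3 level was above WT in every stretch of the element. Per kilobase, LTR regions had 349 RPM in ddb2-3, 2.13 RPM in nrpd1a and 232 RPM in WT. Regions up to the end of frame 1 had 275 RPM per kb in ddb2-3, 0.884 in nrpd1a and 186 in WT, and those up to the end of frame 3 had 280 RPM per kb in ddb2-3, 0.281 in nrpd1a and 184 in WT. The last stretch before the 3′ LTR had 213 RPM per kb in ddb2-3, 6.76 in nrpd1a and 150 in WT. With the placed regions of all copies pooled in bins of 500 bp, ddb2-3 and WT levels were highest at 2001 to 2500 bp, inside frame 1. There 13 regions had 454 RPM per kb in ddb2-3, 1.61 in nrpd1a and 335 in WT. Single regions of that bin ranged widely, from 33.8 to 1251 RPM per kb in WT. Among the 4 stretches, levels were highest in LTRs in ddb2-3 and WT, but highest in the last stretch in nrpd1a. The ddb2-3 to WT sums were 0.59, 0.56, 0.61 and 0.51 on the log2 scale in that order, and 0.68 (0.60 to 0.76) in the regions that could not be placed, whose level was lower, at 114 RPM per kb in ddb2-3, 0 in nrpd1a and 71.2 in WT.

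**Figure D4:**
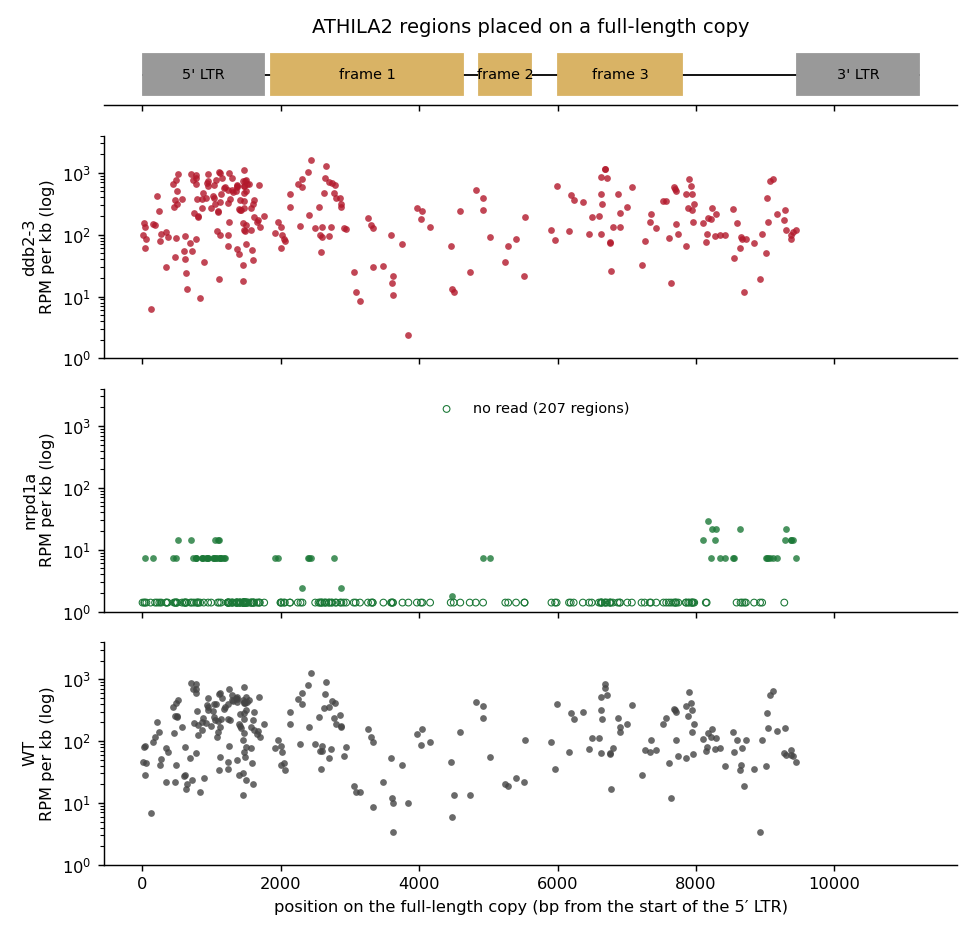
Level of each of the 273 placed ATHILA2 regions in RPM per kb (log axes) against its position on the full-length copy, for ddb2-3, nrpd1a and WT, with both LTRs drawn on the 5′ LTR and a scheme of LTRs and reading frames on top. Open circles are regions without a read in nrpd1a, 207 of the 273. Of the nrpd1a reads, 40 lie in the 121 LTR regions and 40 in the 43 regions between frame 3 and the 3′ LTR.

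The full-length copy itself held 8 regions, 4 hyper and 4 hypo, and every one was above WT. Summed over them the level was 498 RPM in ddb2-3, 2.91 RPM in nrpd1a and 307 RPM in WT, 1.62-fold higher in ddb2-3. Its highest levels were in LTR regions, as at chr3:15712201-15712400 with 137 RPM in ddb2-3, 1.45 RPM in nrpd1a and 76.3 RPM in WT. The region chr3:15721701-15721800, the minus-strand member of the alike pair shown above, had 97.1 RPM in ddb2-3, 0.727 RPM in nrpd1a and 49.9 RPM in WT. Its ratio of 1.95 lay near the 2.09 of its partner in another copy. The lowest level was between the ends of frames 1 and 3, at chr3:15717301-15717600 with 10.7 RPM in ddb2-3, 0 RPM in nrpd1a and 6.09 RPM in WT, and 79.4% of the 24-mers there occur once in the genome.

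The largest cluster, with 14 regions over 12.7 kb on chromosome 2 (chr2:5565101-5577800), spans a copy with an LTR pair of 96.8% identity and the pseudogene AT2G13390. It summed to 535 RPM in ddb2-3, 4.36 RPM in nrpd1a and 362 RPM in WT, and all 14 regions were above WT. Levels within it varied more than ratios did. At the start of the internal part chr2:5567101-5567200 had 7.91 RPM in ddb2-3, 0 RPM in nrpd1a and 3.38 RPM in WT. Less than 1 kb further on, chr2:5567701-5567800 and chr2:5567801-5568100 had 130 and 119 RPM in ddb2-3, 0 RPM each in nrpd1a, and 91.0 and 79.6 RPM in WT. Ratios in the cluster ran from 1.01 (0.715 to 1.43) at chr2:5568801-5568900 to 3.31 (1.34 to 9.77) at chr2:5572201-5572300, which had 3.36 RPM in ddb2-3, 0 RPM in nrpd1a and 1.01 RPM in WT.

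Because ATHILA2 copies resemble each other, one small RNA can match many regions. Of the 313 regions, 241 (77.0%) shared at least 1 24-mer with another that they do not overlap, and 81 contained no 24-mer that occurs once in the genome. Those 81 averaged 36.1 RPM in ddb2-3 and 23.8 RPM in WT, so reads with more than 1 genomic match were counted unless they all reached over a region's edge. Every deposited value came out as whole reads, so such reads were not divided among their matches. In 35 pairs, the regions share at least 50% of the 24-mers of the shorter one. All 35 pairs were above WT in both regions, and the median absolute difference in log2 ratio within a pair was 0.130. The SD of the log2 ratio over all 313 regions was 0.501, which is a different measure, and pairs of unlike sequence were not compared. Whether such a read was counted at every match or at 1 of them is not known. If at every match, counts of regions above WT repeat some of the same reads and the intervals of sums are too narrow.

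The level of a region went with its copy number, but the ddb2-3 ratio did not. Spearman's rho between the median number of genomic copies of a region's 24-mers and its WT level per kb was 0.47 over 313 regions, and that with the log2 ratio was -0.005. If reads were counted at every match, a higher level at more copies is partly built in by the counting. The 77 regions with at least 50% unique 24-mers had a summed log2 ratio of 0.62. The 7 regions with more than 90% unique 24-mers averaged 5.82 RPM in ddb2-3 and 2.44 RPM in WT, a summed log2 ratio of 1.25 (0.93 to 1.59).

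The ratio also varied with base composition. ATHILA2 regions had a mean GC content of 43.7%, against 36.3% over all distinct regions. With the regions split into 4 bins of rising GC content the summed log2 ratio was 0.42, 0.59, 0.64 and 0.72. Spearman's rho between GC content and log2 ratio was 0.31 over the 313 ATHILA2 regions, 0.30 over the 4462 regions of any kind that had reads in ddb2-3 and WT and 0.24 over the other regions within 3 Mb of a centromere. The part of base composition in the ddb2-3 ratio was not tested.

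In nrpd1a nearly all 24-nt small RNAs over ATHILA2 were missing. Regions averaged 0.211 RPM in nrpd1a and 20.6 RPM in WT, so the sum was 1.03% (0.827 to 1.26) of the WT sum, against 3.54% over all distinct regions. Of the 313 regions 0 were above WT, where 32 of all distinct regions (0.714%) were. Of the 313 regions 304 (97.1%) were at least 2-fold lower on the log2(RPM + 1) scale, where 92.9% of all distinct regions were. With levels under 3 nrpd1a reads set to 3 reads (2.18 RPM), 226 regions (72.2%) stayed past that rule against a background of 57%. The exact binomial test on reads called 254 (81.2%) lower against 71.2%, and 0 higher against 0.245%. The fold rule likewise found 0 regions higher in nrpd1a against 0.246%.

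Among the regions with no nrpd1a read, the 3 with the highest WT level allow the largest bounds, since a bound at a fixed floor follows the WT level. The region chr1:15192601-15192900 had no read in nrpd1a and 139 RPM in WT, at least 63.7-fold lower with nrpd1a at the floor of 3 reads and WT as measured, and at least 51.7-fold by the lower limit of the exact interval. At chr2:5567701-5567800 these bounds were 41.7-fold and 33.8-fold. At chr4:4775401-4775500, in the pseudogene AT4G07942 with 114 RPM in ddb2-3, 0 RPM in nrpd1a and 84.9 RPM in WT, they were 38.9-fold and 31.6-fold. In 104 regions 3 nrpd1a reads would be under 10% of the WT level, and in all 104 the nrpd1a level was under 10%. These are the regions with the highest WT levels, and only 1 of the 313 regions had more than 3 nrpd1a reads. The count was therefore nearly fixed by that choice, and the share of all distinct regions is not given. In total 247 regions (78.9%) had no nrpd1a read, close to the 77.1% of all distinct regions, and 48, 12, 5 and 1 regions had 1, 2, 3 and 4 reads.

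The few reads left in nrpd1a were spread unevenly over the element. LTR regions kept 40 reads, 0.918% (0.655 to 1.25) of their WT sum, those up to the end of frame 1 kept 9 reads or 0.475%, those up to the end of frame 3 kept 2 reads or 0.153%, and the regions that could not be placed kept none. The 43 regions between frame 3 and the 3′ LTR also kept 40 reads, but this was 4.51% (3.22 to 6.15) of their WT sum, against 0.640% over the other ATHILA2 regions. Reads were found in 23 of these 43 regions and in 18 of the 34 clusters that reach into the stretch. Without the cluster that held most of them (chr5:12126801-12131500, 6 reads in 3 regions of the stretch), the share was 4.04%. The stretch was singled out after its values were seen, and the same reads may be counted in more than 1 copy.

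The regions with the most nrpd1a reads show this stretch at single sites. The region chr2:5576001-5576100, printed above without a single unique 24-mer, had 18.8 RPM in ddb2-3, 2.91 RPM (4 reads) in nrpd1a and 13.4 RPM in WT. The region chr1:13776201-13776300 had 12.1 RPM in ddb2-3, 2.18 RPM (3 reads) in nrpd1a and 5.92 RPM in WT. The region chr1:15190401-15190500 had 5.99 RPM in ddb2-3, 2.18 RPM (3 reads) in nrpd1a and 3.38 RPM in WT. All 3 lie between frame 3 and the 3′ LTR, as do chr3:14824201-14824300 and chr5:12131401-12131500, each also with 3 reads, whereas the remaining region with 3 reads, chr5:12130101-12130400, lies in an LTR. The 3-read regions lie at the floor of 2.18 RPM, and only chr2:5576001-5576100, with 4 reads, lies above it.

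**Figure D5:**
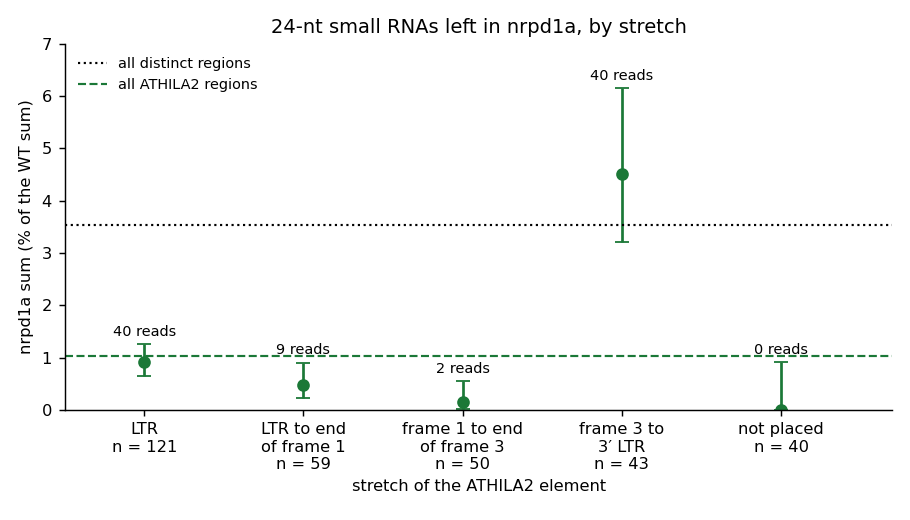
Summed 24-nt small RNA level in nrpd1a as a percentage of the WT sum by stretch of the element, with 95% exact binomial intervals on reads and the number of nrpd1a reads above each point; dotted and dashed lines mark all distinct regions and all ATHILA2 regions. The stretch between frame 3 and the 3′ LTR stands at 4.51%, and the other 4 groups are under 1%.

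Other Athila families had ddb2-3 shifts of a size near that of ATHILA2, and the remaining Gypsy families a smaller one. The summed log2 ratio of ddb2-3 to WT was 0.58 in ATHILA2 regions, 0.69 (0.66 to 0.71) in the 209 regions of ATHILA6A and ATHILA6B, 0.55 (0.52 to 0.58) in the 316 regions of the other ATHILA families and 0.19 (0.17 to 0.21) in the 335 regions of the other Gypsy families. Regions within 3 Mb of a centromere that name no Gypsy element had 0.13 (0.12 to 0.14). In nrpd1a, ATHILA2 kept 1.03% of its WT sum, ATHILA6A and ATHILA6B 0.764%, the other ATHILA families 2.88%, the other Gypsy families 2.08% and the pericentromeric regions without Gypsy 7.30%. With 1 library per genotype, a difference between families is a description of these libraries.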

How the data were processed

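Small RNA libraries were made from total RNA and the submitters' processing notes name CASAVA 1.8.2, Bowtie, bedtools and TAIR10, without roles. Per the file headers, the authors deposited RPM (reads normalised to library size), added up over regions from bisulfite sequencing. The 24-nt length and the classes are known from the deposited tables' names. The RPM denominator, mismatches and handling of reads with several matches are none of them given in the sources used here. All values (100%) were whole multiples of 1 read within 0.1 read, which gave the reads behind intervals and counting tests.

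The members, lists and comparisons were chosen with earlier results of these data known. Members were named by level, ratio, nrpd1a reads, class, chromosome, distance and cluster, with exceptions stated. Ratios of sums and single regions carry no pseudocount; the fold rule used log2(RPM + 1) in regions of at least 1 RPM in 1 library. Intervals are 95% exact binomial (Clopper-Pearson). Gene positions in TAIR10.1 matched the deposited regions for 341 of 341 genes named in the tables, within 2 kb. Centromeres are the assembly gaps of 998 to 1000 unknown bases nearest to the known positions. Regions were placed with blastn 2.17.0 (E at most 1e-05, at least 50% aligned). Python 3.11.15, numpy 2.4.6, scipy 1.17.1 and pandas 2.3.3 were used. The counting test and fold rule were tested on simulated data with counting error only and changes larger than the ATHILA2 shift. Those simulations therefore do not bear on shifts of the size reported here. The alternatives covered scaling, pseudocount, filters, overlap, uniqueness, clusters and stretch identity, and their effects are given at the end.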

Additional observations from a re-analysis of the deposited data

How the results depend on the processing

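Of 50 alternative values, 39 stayed within the limits set for a like value, 11 moved and 0 changed direction. Some of the 39 could not differ from the main value. All 313 regions lay within 3 Mb of a centromere and passed the 1 RPM filter. The CG-hypo class held 1 region, and the bin beyond 2 Mb held the same 11 regions. Regions at least 2-fold lower in nrpd1a counted as unmoved at 304, at 226 with the floor of 3 reads and at 254 by the exact binomial test. Scaling to the median region lowered the summed ddb2-3 to WT log2 ratio from 0.58 to 0.38, the median from 0.58 to 0.39 and the regions at least 2-fold higher from 27 to 9. That number was 41 with a pseudocount of 0.5 RPM, where 1 region was 2-fold lower. It was 10 among only those regions with a mean of at least 10 RPM, and 193 by the exact binomial test on reads. For the counts of 9, 41 and 10, the share of all distinct regions under the same setting is not given. Whether the excess over all regions at the fold rule holds under these settings was therefore not tested. The sum was 0.62 in regions with at least 50% unique 24-mers. Bins of 0.5 Mb gave 0.61 and 0.54 in place of 0.58 within 1 Mb of the centromere. LTR regions at least 90% identical to the full-length copy gave 0.62 in place of 0.59. The last of these, summing by repeat ID in place of neighbours, and leaving out the cluster richest in nrpd1a reads were chosen after seeing the data. The cause of these shifts was not tested. The CG-hyper class has no value without overlapping classes, because its region overlaps another class. No paired analysis was possible because each genotype has 1 library, and for the same reason no replicate could be left out. The nrpd1a library, with 0.727 RPM per read, cannot tell a level under 2.18 RPM from 0, and intervals leave out variation between plants.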
